A study of Mus musculus with 4 samples.

Results

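The genes described here are 39 genes of DNA replication, chosen by name from the 47885 rows of the deposited count table: the genes for origin recognition and licensing, the replicative helicase, the polymerases, the sliding clamp and its loader, the single-strand binding protein, the maturation of Okazaki fragments and the supply of nucleotides. Each symbol matched a single row, and all 39 were among the 15563 rows with enough counts to be tested. The samples were 4 whole mouse embryos, collected at embryonic day 5.5 on a C57BL/6 background. Of these, 2 were labelled Mettl14+/+ (WT) and 2 Mettl14-/- (KO). Mettl14 encodes the partner of the catalytic subunit of the complex that writes N6-methyladenosine on RNA, and the study asked how its loss affects early development after implantation. The genotype was read after sequencing, by qPCR for Mettl14 on left-over amplified cDNA, so the controls are embryos that expressed the gene and may include heterozygotes. The sources used here give neither the part of the gene deleted nor which litter each embryo came from. Where a pair of values is given for a group, replicate 1 comes first.

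DNA replication starts at origins. The origin recognition complex, with CDC6 and CDT1, loads the ring of MCM subunits onto DNA before S phase, and geminin holds CDT1 back once S phase has begun. CDC45 and the GINS complex turn the ring into a moving helicase, primase and DNA polymerase alpha begin each strand, and polymerases delta and epsilon extend it on the PCNA clamp. Many of these genes are transcribed as cells enter S phase, under E2F factors, and the cells of the embryo around implantation divide very fast.

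Library depth ran from 16108062 to 28698541 counts. The deepest library, KO replicate 2, had the fewest genes detected (18346), followed by WT replicate 2 (19603). For the embryos numbered 1 the number detected was 21488 (WT) and 21250 (KO). Levels are given as CPM, counts per 1000000 counts of the library after TMM scaling. Both embryos numbered 2 had a lower TMM factor (WT 0.931, KO 0.972) than both numbered 1 (WT 1.055, KO 1.048). Whether these library differences play a part in the spread between replicates was not tested. The level of Mettl14 itself was 34.0 and 31.6 CPM in WT replicates 1 and 2 and 4.63 and 8.04 CPM in KO replicates 1 and 2; since the genotype was read from this gene's cDNA, the level is no separate check of the labels. Its log2 estimate of -2.37 (SE 0.45) had an adjusted p of 0.274 by edgeR and of 0.000418 by DESeq2. The embryos of a group were not close copies of each other. Across the genes tested, log2 CPM of KO replicate 1 correlated at 0.930 and 0.925 with the WT embryos and at 0.923 with KO replicate 2. KO replicate 2 correlated less with WT replicates 1 and 2, at 0.879 and 0.914. The WT embryos correlated with each other at 0.943. Tissue markers also differed. The summed CPM of 10 visceral endoderm markers was 702 and 1855 in WT, against 254 and 331 in KO, with Trf at most 0.481 CPM in any library, and 9 of 9 tested had lower estimates in KO. That of 8 trophoblast giant cell markers was 158 and 265 in WT, against 1154 and 602 in KO, with Prl2c2, Ctsq and Tpbpa at 0 in every library and 4 of 4 tested higher. The 8 epiblast markers summed to 2469 and 2454 CPM in WT, against 1803 and 2776 in KO (4 of 8 lower), and the 8 extraembryonic ectoderm markers to 690.3 and 807 in WT, against 1147 and 707 in KO (3 of 8 lower). Markers of maternal decidua summed to 31.9 and 39.5 CPM in WT, against 9.96 and 14.4 in KO, with Hoxa11 at 0 and 6 of 6 tested lower, and those of blood and immune cells to between 1.70 and 3.09 CPM, with Hbb-bt and Lyz2 at 0. The part of these tissue differences in the results below was not tested. In whole embryos, fewer cells of a type and less RNA per cell cannot be told apart.

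The replication genes had mostly lower values in the KO embryos, by a small amount. The estimate was below 0 for 32 of 39 and above 0 for 7, and the median log2 fold change was -0.23, against -0.035 over all genes tested, of which 52.3% were below 0. Together they took 6696 and 8275 CPM in WT replicates 1 and 2, and 5814 and 6488 CPM in KO. By edgeR's quasi-likelihood test with Benjamini-Hochberg adjustment over all genes, 0 of 39 passed 0.05 in either direction; the smallest adjusted p among them was 0.574, and the background share of genes called was 0% in each direction. At an unadjusted p under 0.05 there were 2 lower (Mcm4 and Gins3) and 0 higher, where the background was 3.08% lower and 4.74% higher. With 1 embryo left out, the estimate ran from -0.83 to -0.58 for Mcm4 and from -1.29 to -0.80 for Gins3. Those fits leave 1 embryo in a group, so only these estimates are given here. DESeq2 called 0 of the 39, with a background of 0.964% higher and 0.578% lower, and limma-voom called 0. Both KO embryos lay below both WT embryos for 17 of 39 (43.6%), where 18.8% of all genes tested did so, and above both for 3 of 39 (7.69%), against 19.4%. For the other 19 the groups overlapped.

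The difference depended on which embryos were set side by side. The median log2 difference over the 39 genes was -0.26 for KO replicate 1 against WT replicate 1, -0.47 for KO replicate 1 against WT replicate 2, and -0.33 for KO replicate 2 against WT replicate 2. For KO replicate 2 against WT replicate 1 it was -0.062, with 19 genes higher and 20 lower. The WT embryos differed from each other by 0.27, WT replicate 2 being higher for 28 of 39, so the spread between the controls was as large as the difference between the groups. The KO embryos differed by 0.072, KO replicate 2 being higher for 24 of 39. Over all 15563 genes tested the medians of the same pairs lay between -0.084 and 0.059, and WT replicate 2 was above WT replicate 1 for 7546. For the 39 genes, the median fold change was -0.36 without WT replicate 1 and -0.13 without WT replicate 2. It was -0.15 without KO replicate 1 and -0.30 without KO replicate 2. The group difference was larger than both differences between replicates for 14 of 39 genes. The share over all genes tested was not computed for this count, so it is a description only.

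**Figure D1:**
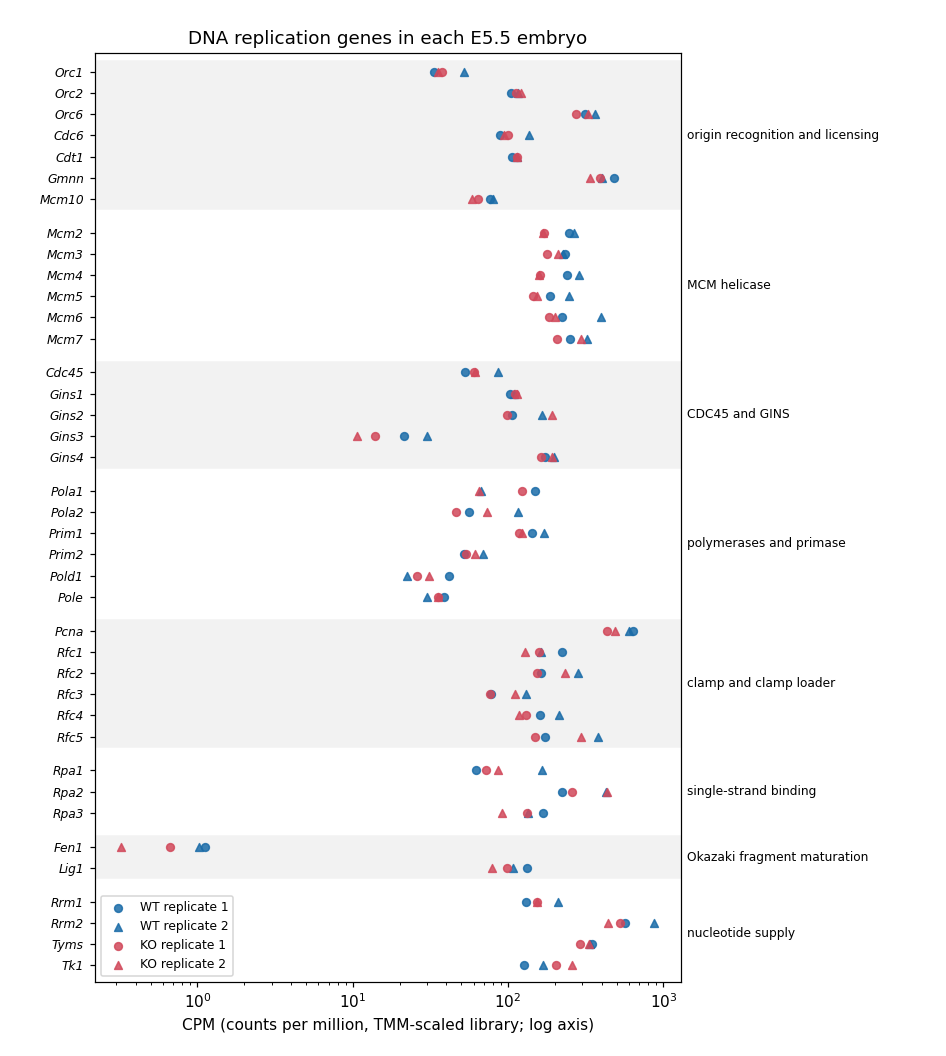
CPM of each of the 39 genes (log axis) in the 4 embryos, in bands by role; circles are replicate 1 and triangles replicate 2, blue WT and red KO, 1 point per embryo. The red points of Mcm2, Mcm4, Mcm5 and Gins3 lie to the left of the blue ones, those of Tk1 to the right, and Fen1 stands alone near 1 CPM or below.

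**Figure D2:**
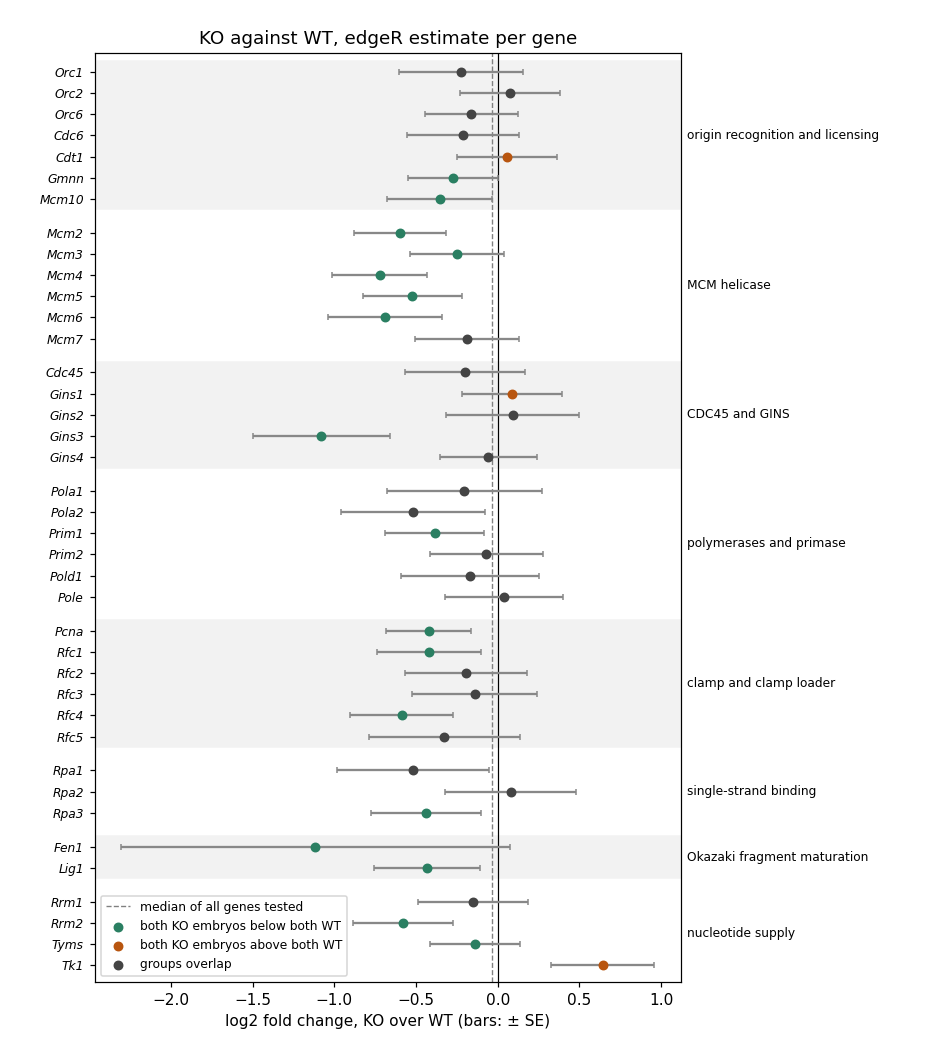
edgeR log2 fold change of each gene, KO over WT, with bars of ± 1 SE; colours show whether both KO embryos lie below both WT embryos, both lie above them, or the groups overlap. Of the 39 estimates 32 are below 0, and Gins3 (-1.08) and Mcm4 (-0.72) have the smallest unadjusted p.

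Among the role groups with more than 2 genes, the MCM helicase had the lowest median. MCM2 to MCM7 form the 6-part ring that unwinds DNA, loaded in excess of the origins used. All 6 genes had lower estimates in KO, with a median of -0.56, and both KO embryos were below both WT embryos for 5 of 6; over all genes tested 52.3% had an estimate below 0, and 18.8% had both KO embryos lower. Mcm4 (chromosome 16, 15623897 to 15637400, minus strand, mm10) stood at 239.9 and 288 CPM in WT replicates 1 and 2 and at 161 and 159 CPM in KO replicates 1 and 2. The KO embryos were nearly equal and both lower. The estimate of -0.72 on the log2 scale had an SE of 0.29 (n = 2 per group) and an unadjusted p of 0.0371, and the adjusted p was 0.592 by edgeR and 0.473 by DESeq2. Mcm2 (chromosome 6, 88883474 to 88898780) stood at 246 and 268 CPM in WT and at 171 and 168 in KO. Its fold change was -0.60 (SE 0.28, edgeR adjusted p = 0.686), and here too each group was tight and the groups did not overlap. Mcm5 stood at 186 and 245 CPM in WT and at 146 and 155 in KO. Its estimate was -0.52 (SE 0.30), larger than the difference between the WT embryos (0.40 on the log2 scale).

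Mcm6 stood at 223 and 398 CPM in WT and at 183 and 202 in KO. Here WT replicate 2 was far above the other 3 embryos, and the estimate of -0.69 (SE 0.35) became -0.20 without it. Mcm3 stood at 233 and 227 CPM in WT and at 178 and 209 in KO (-0.25, SE 0.29), a small gap with no overlap. The exons of Mcm7, merged over all its annotated transcripts, overlap the microRNAs Mir25 and Mir93 on the same strand. They also overlap Ap4m1 and Cops6 on the opposite strand, over 321 and 64 bases. Mcm7 stood at 249.96 and 322 CPM in WT and at 206 and 297 in KO. The groups overlapped, and its estimate of -0.19 (SE 0.32) was 0.13 without KO replicate 1. The amplification kit does not mark strand, so reads of overlapping genes cannot be told apart. Leaving out WT replicate 2 took the median of the 6 genes from -0.56 to -0.28; without any other embryo it lay between -0.67 and -0.46.

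The subunits assemble in equal numbers, so their shares were also compared within each embryo, as CPM per kilobase of merged exons. Merged exons span 6956 bases for Mcm2, whose longest coding transcript has 3371, and 3589 for Mcm4 by either measure. Shares of different subunits therefore depend on the length used, and a low share of Mcm2 does not show a scarce subunit. Mcm4 made up 21.2% and 20.1% of the summed level of the 6 in WT, against 18.8% and 16.2% in KO. Mcm7 made up 17.9% and 18.3% in WT and 19.4% and 24.6% in KO. The shares of Mcm5 stayed between 14.2% and 15.4%, and those of Mcm2 between 8.84% and 11.2%. Mcm3 held 19.7% and 15.2% in WT and 19.9% and 20.4% in KO, and Mcm6 15.2% and 21.4% in WT and 16.4% and 15.8% in KO. Without division by length, the 6 genes together took 1377 and 1748 CPM in WT, against 1046 and 1189 in KO.

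RefSeq promoter windows (GRCm38.p6, from 250 bases before to 50 after a start) were at hand for 31 of the 39 genes, in 36 windows. They were searched on both strands for letters of E2F sites (TTTGGCGC, TTTCGCGC, TTTGGCGG or TTTCCCGC), for the NF-Y box CCAAT, and for the cell-cycle element CHR (TTTGAA or TTCGAA). The E2F letters were found for 14 of 31 genes (45.2%) and for 2.70% of the 27025 genes in the table. CCAAT was found for 21 of 31 (67.7%) against 41.1%, and CHR for 6 of 31 (19.4%) against 21.7%, close to the share over all genes. Of the MCM genes in the table (all but Mcm4), E2F letters were in the windows of 4 of 5, not of Mcm2, and CCAAT in those of 5 of 5. Member windows had a median GC content of 57.5%, and all windows 52.7%. A match of letters is a description of the sequence and not a binding site. The 150 bases before the start are shown for 3 MCM genes, for Gins3, which had the lowest estimate among genes over 10 CPM, and for Tk1, which had the highest. They run 5′ to 3′ on the gene's own strand, with matches in capitals; those on the other strand appear as the reverse complement, such as ATTGG.
Mcm2: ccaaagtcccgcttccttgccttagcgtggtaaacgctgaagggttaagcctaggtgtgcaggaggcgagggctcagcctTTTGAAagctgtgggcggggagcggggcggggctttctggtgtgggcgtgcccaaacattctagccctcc
Mcm5: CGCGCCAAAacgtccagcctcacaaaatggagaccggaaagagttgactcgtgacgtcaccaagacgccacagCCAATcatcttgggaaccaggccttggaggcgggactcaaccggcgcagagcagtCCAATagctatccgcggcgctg
Mcm6: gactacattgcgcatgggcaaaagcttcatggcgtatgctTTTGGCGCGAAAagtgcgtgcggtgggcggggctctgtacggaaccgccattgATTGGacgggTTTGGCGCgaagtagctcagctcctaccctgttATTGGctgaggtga
Gins3: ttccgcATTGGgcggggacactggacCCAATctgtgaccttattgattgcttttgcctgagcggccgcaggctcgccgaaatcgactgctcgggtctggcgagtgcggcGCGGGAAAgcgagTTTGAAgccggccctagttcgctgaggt
Tk1: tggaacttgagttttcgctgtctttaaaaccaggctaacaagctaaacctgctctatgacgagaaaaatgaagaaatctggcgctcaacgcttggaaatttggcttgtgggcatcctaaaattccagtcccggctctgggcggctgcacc
They lie at chr6:88898781-88898930 on the minus strand (Mcm2), chr8:75109359-75109508 on the plus strand (Mcm5), chr1:128359706-128359855 on the minus strand (Mcm6), chr8:95633409-95633558 on the plus strand (Gins3) and chr11:117826015-117826164 on the minus strand (Tk1). Mcm6 holds 3 E2F matches, of which 2 overlap, and 2 CCAAT boxes. In Mcm5 a second E2F match begins 3 bases before the stretch shown and overlaps the one at its left end. Gins3 holds 1 E2F match, 2 CCAAT boxes and 1 CHR match. Mcm2 holds 1 CHR match, and Tk1, printed in lower case only, holds none of these letters. The windows of Rfc4, Rfc5 and Tyms, whose estimates were below 0, also held none. Those of Orc2, Cdt1 and Rpa2, whose estimates were above 0, held matches. A relation of the letters to the estimates was not tested.

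Of the genes that activate the ring, Gins3 differed most between the groups. GINS is a ring of GINS1 to GINS4 that joins MCM and CDC45. Gins3 (chromosome 8, 95633453 to 95645060) had the second lowest estimate of the 39 genes. It stood at 21.5 and 30.2 CPM in WT and at 13.8 and 10.7 CPM in KO, with both KO embryos below both WT embryos. The estimate of -1.08 on the log2 scale had an SE of 0.42 (n = 2 per group) and an unadjusted p of 0.0328, and the adjusted p was 0.574 by edgeR and 0.349 by DESeq2. It ran from -1.29 to -0.80 with 1 embryo left out. For the other subunits the estimates were near 0. Gins4 stood at 172 and 199 CPM in WT and at 164 and 193 in KO (-0.057, SE 0.30). Gins1 stood at 104 and 109 CPM in WT and at 110 and 115 in KO (0.087, SE 0.31), a step up of a few CPM with no overlap.

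Gins2, of which 67.3% of the exon bases overlap Gse1 on the opposite strand, ran from 99.1 to 191 CPM, and KO replicate 2 was highest and KO replicate 1 lowest. Cdc45, the helicase partner, stood at 53.2 and 86.7 CPM in WT and at 60.0 and 61.6 in KO. The KO values lay between the WT values. The median of these 5 genes was -0.057, and it was 0.14 without KO replicate 1 and 0.13 without WT replicate 2. Gins3 also had the lowest level per length of the GINS genes, at 7.03 CPM per kilobase against 135 for Gins4.

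In the licensing group, Gmnn, which encodes geminin, had the highest level per length of all 39 genes (274 CPM per kilobase of merged exons). It stood at 479 and 401 CPM in WT and at 389 and 338 in KO, with a gap of a few per cent between the nearest embryos (-0.27, SE 0.28, edgeR adjusted p = 0.894). Its partner Cdt1 stood at 106 and 114 CPM in WT and at 114 in both KO embryos (0.055, SE 0.31). By a margin under 1 CPM both KO values lay above both WT values. Mcm10, a scaffold that helps start the helicase, had the smallest unadjusted p of the group (0.302). It stood at 76.3 and 79.7 CPM in WT and at 63.8 and 58.2 in KO (-0.36, SE 0.32), lower in both KO embryos. Orc1, Orc2 and Orc6 of the origin recognition complex, and Cdc6, overlapped between the groups, with estimates of -0.23, 0.076, -0.16 and -0.21. Orc1 stood at 33.2 and 52.4 CPM in WT and at 37.5 and 35.6 in KO, and Cdc6 at 88.6 and 136 in WT and at 99.8 and 93.9 in KO. In both genes WT replicate 2 stood above the other 3 embryos. Orc6, at 311 and 361 CPM in WT and at 272 and 328 in KO, and Orc2, which ran from 105 to 121 CPM, varied less. Without WT replicate 2 the median of the 7 genes was 0.12, against -0.21 with all embryos. Of Orc2's exon bases 29.8% overlap Nif3l1, and 10.8% of Orc1's overlap Gm12743, on the opposite strand.

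Of the polymerase genes, Prim1, the catalytic subunit of primase, had both the smallest unadjusted p (0.239) and the highest level per length. It stood at 142 and 171 CPM in WT and at 117 and 123 in KO (-0.39, SE 0.30), lower in both KO embryos. The other 5 overlapped between the groups. Pola1, the catalytic subunit of polymerase alpha on the X chromosome, stood at 149.5 and 67.2 CPM in WT and at 123 and 65.2 in KO. It was high in both replicates numbered 1 and low in both numbered 2. Pola2, the second subunit of the same enzyme, showed the opposite order, at 56.2 and 115 CPM in WT, against 46.4 and 73.4 in KO. The estimates were -0.20 (SE 0.47) for Pola1 and -0.52 (SE 0.44) for Pola2, and those of Prim2, Pold1 and Pole were -0.069, -0.17 and 0.040. Prim2, the large subunit of primase, ran from 51.9 to 69.4 CPM, with both extremes in WT. The same held for Pold1 (22.4 to 41.7 CPM) and Pole (29.9 to 38.7 CPM), so that in all 3 genes the KO values lay inside the WT range. Pold1 and Pole, the catalytic subunits of polymerases delta and epsilon, were among the lowest per length, at 6.23 and 3.11 CPM per kilobase. The median of the group was -0.19, with 0.0057 without WT replicate 1 and -0.052 without KO replicate 1.

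Pcna, the clamp that holds polymerases on DNA, was second in level per length (225 CPM per kilobase). It stood at 637 and 601 CPM in WT and at 433 and 491 in KO. Both KO embryos were lower, and the estimate was -0.42 (SE 0.26, edgeR adjusted p = 0.783). The table also lists the pseudogenes Pcna-ps1 and Pcna-ps2, and reads shared with such copies make its count uncertain to that extent. Rfc4, a clamp loader subunit, had the smallest unadjusted p of the group (0.0959), with 160.1 and 214 CPM in WT, against 130.5 and 118 in KO (-0.59, SE 0.31). Rfc1, the large subunit, stood at 222 and 162 CPM in WT and at 158 and 129 in KO (-0.42, SE 0.32), so that the nearest embryos of the groups were almost equal. In the other 3 loader genes both embryos numbered 2 lay above both numbered 1. Rfc5 stood at 172 and 382 CPM in WT and at 148 and 293 in KO, Rfc2 at 163 and 282 in WT, against 154 and 234 in KO, and Rfc3 at 77.2 and 130.1 in WT, against 76.5 and 111 in KO. On the opposite strand, Eif4a2 overlaps 12.7% of the exon bases of Rfc4, Lat2 15.1% of those of Rfc2 and Wsb2 10.7% of those of Rfc5. All 6 genes had estimates below 0, with a median of -0.37; it was -0.045 without WT replicate 2 and -0.051 without KO replicate 1.

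The 3 genes of replication protein A, which coats single-stranded DNA, did not share a pattern. Rpa3 had the smallest unadjusted p (0.229) and the highest level per length of the 3, at 167 and 134 CPM in WT, against 132 and 90.8 in KO (-0.44, SE 0.34). Rpa2 stood at 222 and 429.8 CPM in WT and at 257 and 432 in KO (0.080, SE 0.40). Rpa1 stood at 62.4 and 165 CPM in WT and at 72.2 and 86.2 in KO (-0.52, SE 0.47). Both KO values of Rpa1 lay above WT replicate 1 and below WT replicate 2, and its estimate was 0.35 without WT replicate 2. That was also the median of the 3 genes without that embryo, against -0.44 with all 4.

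Lig1, the ligase that seals Okazaki fragments, stood at 131 and 108 CPM in WT and at 98.3 and 79.1 in KO, lower in both KO embryos (-0.43, SE 0.32, edgeR adjusted p = 0.848). Fen1, the flap nuclease of the same step, was listed with 19 and 19 counts in WT, against 14 and 9 in KO, the lowest of the 39 genes. Of its merged exon bases 78.8% overlap the antisense gene Gm10143 and 5.37% Tmem258, both on the opposite strand. The part of this overlap in the low counts was not tested, and the sources used here do not say how such reads were counted. The estimate of Fen1 was -1.12 (SE 1.19).

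Among the nucleotide supply genes, Tk1 and Rrm2 differed most, in opposite directions. Tk1 (chromosome 11, 117815526 to 117826092), the cytosolic thymidine kinase of the salvage route, had the highest estimate of the 39. It stood at 126 and 169 CPM in WT and at 204 and 257 in KO, higher in both KO embryos. The estimate of 0.64 on the log2 scale had an SE of 0.32 (n = 2 per group) and an unadjusted p of 0.0744, and the adjusted p was 0.702 by edgeR and 0.661 by DESeq2. It ran from 0.47 to 0.88 with 1 embryo left out. Rrm2, the regulated subunit of ribonucleotide reductase, stood at 566 and 876 CPM in WT and at 524 and 443 in KO. Its estimate was -0.58 (SE 0.30, edgeR adjusted p = 0.743), and -0.22 without WT replicate 2, the highest embryo.

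Rrm1, the large subunit of the same enzyme, stood at 129.6 and 210.0 CPM in WT and at 153 in both KO embryos (-0.15, SE 0.34). The KO values lay between the WT values. Tyms, which makes thymidylate from deoxyuridylate, stood at 346 and 338 CPM in WT and at 290.0 and 332 in KO (-0.14, SE 0.27). The de novo gene Tyms and the salvage gene Tk1 thus had estimates of opposite sign, and the difference between the genes was not tested. The group's median was -0.14, with 0.051 without WT replicate 2 and -0.016 without KO replicate 1.

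**Figure D3:**
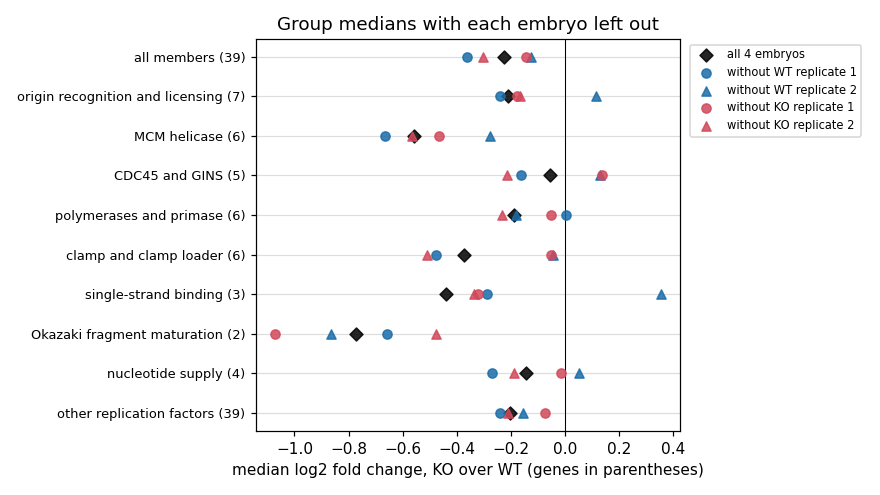
Median log2 fold change, KO over WT, of all 39 genes, of each role group and of 39 other replication factors, with all 4 embryos (black) and with each embryo left out (colours as for the embryo removed); the number of genes is in parentheses. The MCM median runs from -0.67 to -0.28, and the medians of origin licensing, CDC45 and GINS, polymerases, single-strand binding and nucleotide supply cross 0 without at least 1 embryo.

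Part of the spread between embryos of a group was shared by the genes of both groups. The log2 difference of replicate 2 from replicate 1 in WT correlated with that in KO across the 39 genes (Pearson 0.599, Spearman 0.509); these points share the same 4 libraries, and genes are not independent replicates. Over all genes tested the Pearson correlation was 0.329, so a shared part was not particular to the replication genes. The difference had the same sign in 25 of 39, and the share over all genes tested was not computed. Gins2, Pola2, Rfc2, Rfc3, Rfc5 and Rpa2 were higher in replicate 2 by over 0.5 in both groups, and Pola1 was lower by over 0.5 in both. The length of the longest coding transcript had Spearman correlations of -0.0081 with this difference in WT and -0.061 in KO, and its GC content 0.025 in WT and 0.34 in KO, over 39 genes. The difference between the groups had a Spearman correlation of -0.070 with length and of 0.15 with GC content.

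**Figure D4:**
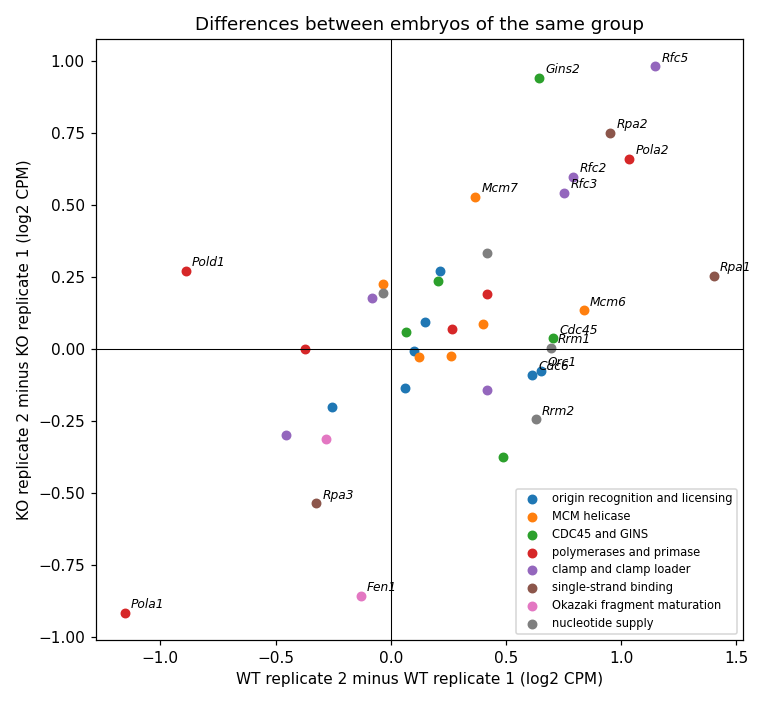
Difference of replicate 2 from replicate 1 in log2 CPM, in WT (x axis) and in KO (y axis), 1 point per gene, coloured by role; genes beyond 0.5 on either axis are named. Rfc5, Rpa2, Pola2, Gins2, Rfc2 and Rfc3 lie at the upper right and Pola1 at the lower left.

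A further list of 39 replication factors (the remaining subunits of the origin complex and polymerases, the kinase that fires origins, fork protection, clamp unloading, chromatin assembly and other nucleotide enzymes) had a similar median, -0.20. Estimates were below 0 for 29 and above 0 for 10. By edgeR 0 passed over all genes, and DESeq2 and limma-voom called 0. At an unadjusted edgeR p under 0.05, 1 of 39 was lower, which is close to the 3.08% of all genes tested. Both KO embryos lay below both WT embryos for 14 of 39 (35.9%) and above for 6 (15.4%), against 18.8% and 19.4% of all genes tested. Dck, the deoxycytidine kinase of the salvage route, stood at 56.8 and 75.9 CPM in WT and at 37.7 and 32.7 in KO (-0.92, SE 0.35, unadjusted p = 0.0316, edgeR adjusted p = 0.574). Samhd1, which breaks down deoxynucleotides, had 52.2 and 73.9 CPM in WT, against 36.4 and 40.3 in KO (-0.72, SE 0.36). Dut, which removes dUTP, had 738 and 682 in WT, against 502 and 553 in KO (-0.43, SE 0.26). Each of these was lower in both KO embryos. Dbf4, the activating subunit of the CDC7 kinase that fires origins by acting on MCM, was higher in both, with 213 and 210.1 CPM in WT, against 289 and 332 in KO (0.55, SE 0.28, unadjusted p = 0.0844, edgeR adjusted p = 0.724). The estimate of Cdc7 itself was -0.026 (SE 0.36).

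Among 13 genes for E2F factors, their partners and the pocket proteins that restrain them, the median was -0.23, with 9 below 0 and 4 above. By edgeR 0 passed, and DESeq2 and limma-voom called 0. At an unadjusted edgeR p under 0.05, 1 of 13 was lower, where 3.08% of all genes tested were. That gene was Rbl1, a pocket protein of cycling cells, at 31.5 and 23.4 CPM in WT, against 16.7 and 10.7 in KO (-1.003, SE 0.43, unadjusted p = 0.0477, edgeR adjusted p = 0.63). Its relative Rbl2 was at most 3.66 CPM in any embryo (-1.18, SE 0.76). E2f3, an activator, stood at 36.8 and 23.2 CPM in WT and at 42.2 and 33.4 in KO (0.33, SE 0.39), and E2f2 at 4.60 and 3.42 in WT, against 3.73 and 1.69 in KO (-0.57, SE 0.70). The groups overlapped for both. The estimate of E2f1 was 0.022 (SE 0.41). Of 9 genes for the replication checkpoint, 6 were below 0 and 3 above (median -0.16), and 0 had an unadjusted edgeR p under 0.05, with 0 called by edgeR, DESeq2 or limma-voom.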

How the data were processed

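Polyadenylated RNA of each whole embryo was amplified (Smart-Seq v4 Ultra Low Input kit) and read in pairs, per the labels' protocols. The authors deposited raw read counts per gene. Per the submitters' processing notes, TopHat, Cufflinks and mm10 were used, with the counter, its strand setting and the annotation not given in the sources used here. Of 47885 rows, 46574 were matched to GENCODE M21 (mm10), which gave symbols, positions and merged exon lengths.

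KO was compared with WT over the whole table in edgeR 4.0.16 (R 4.3.3): genes kept by filterByExpr at a minimum of 10 counts and a total of 15, TMM scaling, the quasi-likelihood F test with robust fitting, Benjamini-Hochberg over 15563 genes at 0.05. The SE is the absolute log2 fold change over the square root of F. Levels between genes are CPM per kilobase of merged exons. Merged exons can be longer than the longest coding transcript, so the order of genes by level depends on the length used. Gmnn and Pcna have 1465 and 2400 bases of merged exons, and longest coding transcripts of 1127 and 1518. The embryos were separate animals, so p-values set the group difference against the spread between embryos of a group. The estimate of that spread for a gene draws partly on the other genes. Alternatives were DESeq2 1.42.0, limma-voom 3.58.1, other scalings and filters, a replicate block and each embryo left out.

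All 39 genes were named. In full were given, per role, the gene with the smallest p and that with the highest level per length, and genes with unadjusted p under 0.05 and no overlap; other genes were then added after their values were seen. Of the other replication and E2F lists the 4 smallest p were given. The genes, lists and motifs were chosen with earlier results of these data known. Promoter sequences are from RefSeq (GRCm38.p6).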

Additional observations from a re-analysis of the deposited data

How the results depend on the processing

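No replication gene passed the threshold in any fit with 2 embryos a group. Of the 39, 20 had the sign of the reported estimate in each of the 11 alternative fits that tested them. The fit with at least 50 counts in 2 libraries tested 38 of the 39, all but Fen1. The count over all genes was 0 higher and 0 lower in the reported fit and with limma-voom, RLE scaling, library totals or at least 50 counts in 2 libraries. It was 150 higher and 90 lower with DESeq2, 157 and 101 with no low-count filter, and 14 to 133 higher and 1 to 209 lower with 1 embryo left out. The labels name no litter, batch or day that embryos with the same number have in common; over all genes tested, the log2 differences within WT and within KO had a correlation of 0.329. With the replicate block the calls were 52 higher and 19 lower, none of them a replication gene. At an unadjusted p under 0.05 the block gave 8 of the 39 lower (Mcm2, Mcm4, Mcm5, Mcm6, Gins3, Pcna, Rfc4 and Rrm2) and 1 higher (Tk1), against 2 and 0 without it; over all genes it gave 6.57% lower and 7.65% higher, against 3.08% and 4.74%. With library totals Tk1 was also higher at that level. With 1 embryo left out, the median ran from -0.36 to -0.13 for the 39 genes, from -0.24 to -0.074 for the other replication factors and from -0.42 to -0.0098 for the E2F list. A change of sign occurred for 19 genes, only when an embryo was left out; their estimates ran as follows: Orc1 -0.50 to 0.15, Orc6 -0.29 to 0.049, Cdc6 -0.47 to 0.14, Mcm7 -0.47 to 0.13, Cdc45 -0.49 to 0.20, Gins2 -0.45 to 0.57, Gins4 -0.17 to 0.14, Pola1 -0.66 to 0.48, Pola2 -0.92 to 0.10, Prim2 -0.24 to 0.16, Pold1 -0.54 to 0.36, Pole -0.13 to 0.25, Rfc2 -0.52 to 0.26, Rfc3 -0.44 to 0.29, Rfc5 -0.89 to 0.37, Rpa1 -1.04 to 0.35, Rpa2 -0.34 to 0.64, Rrm1 -0.44 to 0.25 and Tyms -0.23 to 0.036. The lone embryo left in a group is then assumed to vary like the others; the cause of these changes was not tested. With 2 embryos a group, differences of the size seen here are not separable from the spread between embryos by the reported test.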
